A study of Homo sapiens with 8 samples.

Results

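The genes described here are the long intergenic noncoding RNAs with systematic LINC names that gave a signal in mock cells of every cell line studied. They were selected on the Cy3 (mock) channel of the arrays: a gene name made of LINC and a number, on a spot that is no control, with at least 1 probe that the scanner software called well above background in Cy3 on all 8 arrays. Of 836 LINC names among the 43317 gene names of the array, 166 met this rule (19.9%), whereas 15572 of all gene names had such a probe (35.9%). The 166 genes were measured by 226 passing probes, and the brightest passing probe stood for each gene. A further 27 LINC genes lay just outside the rule, with a probe well above background on 7 arrays. The mean mock level of the members ran from -6.07 to 3.92, and that of these 27 genes from -6.37 to -1.30. Here the mock level is the log2 Cy3 signal minus the 75th percentile of the 15572 genes on the same array, so that 0 is the 75th percentile.

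A LINC name is given to a long transcript that lies between protein-coding genes and has no long reading frame of its own. Such RNAs are known for low levels and for patterns restricted to tissues or cell states. Some act in the nucleus on neighbouring genes, some bind proteins or other RNAs in the cytoplasm, and a few turned out to encode very small proteins. In the RefSeq table all 166 names were found, 132 as the current symbol and 34 as an older one. RefSeq listed 152 of them as lncRNA, 11 as protein-coding and 3 as transcribed pseudogenes. LINC00086 and LINC00087 both matched the same pair of symbols, SMIM10L2A and SMIM10L2B.

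Total RNA of 5 human cancer cell lines was compared on 8 Agilent Human GE 60K arrays with 2 colours. Every array held mock cells without transfection in Cy3 and transfected cells of the same line in Cy5. PC3 prostate cancer cells received the siRNA si-PIR-2 or si-PIR-3 against PIR, a gene that encodes the nuclear protein pirin. SK-MES-1 cells, a lung squamous cell carcinoma line, received miR-144-5p or miR-144-3p, the pancreatic cancer line PANC1 received miR-130-5p or miR-130-3p, and SW1990 pancreatic cancer cells and MDA-MB-231 breast cancer cells received miR-204-5p. Lipofectamine RNAiMAX was the transfection agent, the labels give mock cells as not transfected, and no array with a control RNA was analysed here. Each miRNA and siRNA had 1 array per line. Dyes were never swapped, so that the dye and the transfection cannot be told apart. The 2 arrays of PC3, SK-MES-1 and PANC1 may hold the same mock RNA, since the labels do not say that each had its own. The spread between them is taken as technical, and mock levels are given as a description with no test.

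All 8 arrays had 62976 spots and no saturated spot, and 41.4% to 46.4% of the probes were well above background in Cy3. The PIR ratio was -5.46 on the si-PIR-2 array and -4.27 on the si-PIR-3 array, against -1.59 to 0.05 on the 6 other arrays. Of 4 squamous markers (TP63, KRT5, KRT6A and DSG3), 1 was well above background on both SK-MES-1 arrays, TP63, and KRT5 and KRT6A were so in SW1990 alone. Of the 5 prostate markers, KLK3 and KLK2 were not well above background in PC3, and HOXB13 was. Of 4 pancreatic duct markers, KRT19, KRT7 and SOX9 were well above background on every array of all 5 lines and PDX1 on none. PTPRC and CDH5, markers of blood and endothelial cells, were called well above background in Cy3 on all arrays at levels of -6.3 to -4.7, a range in which many members also lie, so that the call alone does not separate dim transcripts from other weak signal on a probe.

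In mock cells, the members differed between lines by amounts that varied widely from gene to gene. The range over the 5 lines (the highest line mean minus the lowest) had a median of 1.01 on the log2 scale for members and of 1.26 for all 15572 genes. It was over 1 for 84 of 166 members (50.6%), beside 65.4% of all genes. After normexp, loess and Aquantile normalization, which moves dim probes closer together, these shares were 18.1% and 43.3%. Between the 2 arrays of a line, the mock level of a member differed by a median of 0.11, with 95% of the differences under 0.43 and a largest difference of 0.89. The range was over 2 for 27 members (16.3%), beside 22.2% of all genes. It was under 0.5 for 31 members, and that share of all genes was not counted.

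**Figure D1:**
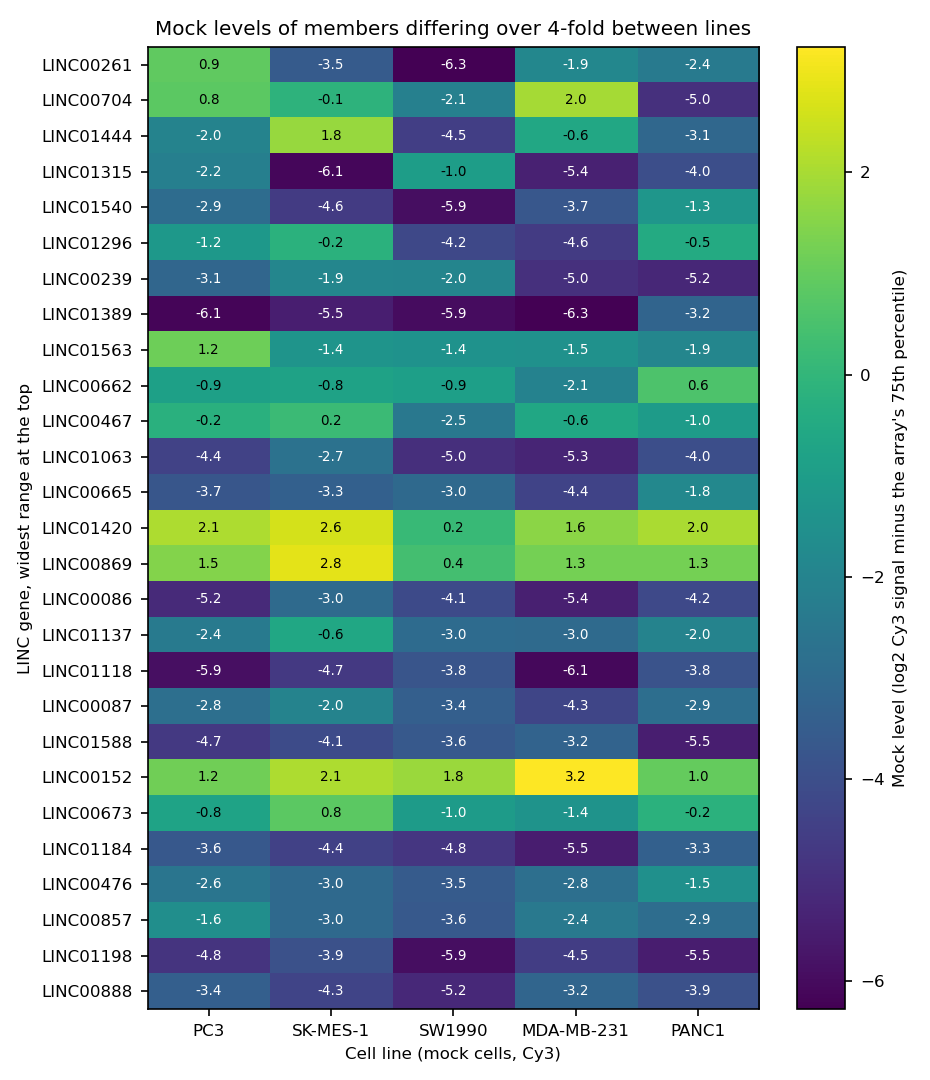
Mock level in 5 cell lines (columns) of the 27 LINC genes (rows) whose levels ranged by over 2 on the log2 scale, as the log2 Cy3 signal minus the array's 75th percentile, averaged over the 2 arrays of PC3, SK-MES-1 and PANC1. The order of the lines differed from gene to gene, with LINC00261 highest in PC3, LINC00704 in MDA-MB-231, LINC01444 in SK-MES-1, LINC01315 in SW1990 and LINC01540 in PANC1. Colours compare lines within a row, since different probes are not comparable in level.

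LINC00261, a noncoding neighbour of the endoderm factor gene FOXA2, had the widest range on this scale, at 7.19. After normexp, loess and Aquantile its range was 4.48, below those of LINC00704 (4.96) and LINC01444 (4.73). The mock level of LINC00261 was 0.93 in PC3, -1.87 in MDA-MB-231, -2.40 in PANC1, -3.53 in SK-MES-1 and -6.27 in SW1990. Each step of this order exceeded the largest difference between the 2 arrays of a line for this probe (0.18), and the 2 pancreatic cancer lines lay apart from each other. The probe lies on chromosome 20 at chr20:22541381-22541440 (hg19). LINC00704, now MANCR and described as a mitosis-associated RNA in breast cancer, was at 1.95 in MDA-MB-231, 0.82 in PC3, -0.12 in SK-MES-1, -2.14 in SW1990 and -4.97 in PANC1. Its second probe gave the same order, from 0.08 in MDA-MB-231 to -5.94 in PANC1. PANC1 was the lowest line by a wide margin on both probes.

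LINC01444, a transcript with no role known here, was at 1.77 in SK-MES-1, -0.56 in MDA-MB-231, -2.02 in PC3, -3.11 in PANC1 and -4.49 in SW1990. LINC01315 was at -0.98 in SW1990, -2.15 in PC3, -4.00 in PANC1, -5.39 in MDA-MB-231 and -6.12 in SK-MES-1. The 2 SK-MES-1 arrays differed by 0.80 for LINC01315, which is more than the step to MDA-MB-231. LINC01540, now GAPLINC and first described in gastric adenocarcinoma, was at -1.29 in PANC1, -2.93 in PC3, -3.69 in MDA-MB-231, -4.64 in SK-MES-1 and -5.91 in SW1990. Each of these 3 genes had 1 probe that met the rule, and their highest lines were 3 different lines.

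LINC01296 fell into a high and a low group of lines. Its mock level was -0.21 in SK-MES-1, -0.47 in PANC1 and -1.21 in PC3, and -4.22 in SW1990 and -4.61 in MDA-MB-231. RefSeq lists it as the pseudogene DUXAP9, which has close copies, so that other members of that family may contribute to its probe. LINC01118 showed a smaller split, with -3.77 in SW1990 and -3.85 in PANC1, which differed by less than the largest difference between arrays of a line (0.23), -4.69 in SK-MES-1, -5.90 in PC3 and -6.08 in MDA-MB-231. The last 2 lines likewise lay within that difference. After normexp, loess and Aquantile the range of LINC01118 was 0.64 in place of 2.31, with PC3 as its lowest line. In Cy5 its highest line was PANC1.

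SK-MES-1 was the line with the highest mock level for 79 of 166 members (47.6%) and for 25.8% of all genes tested, and for 30.3% of other genes below the median mock level. This depended on the scale: with levels set to the array's median it held for 37.3% of members and 19.9% of all genes, and after normexp, loess and Aquantile for 23.5% of members and 18.6% of all genes. Of the 27 members with a range over 2, 26 kept their highest line under either scale. Of all members, 12 had a range over 2 after normexp, loess and Aquantile, and that share of all genes was not counted.

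The levels in the Cy5 channel, which the choice of members did not use, were tested between the 5 lines by a moderated F-test in limma. Of 166 members, 60 passed an adjusted p of 0.05 (36.1%), beside 50.9% of all genes tested. They included 24 of the 27 members with a mock range over 2 and none of the 31 with a range under 0.5. Of these 27, 21 had their highest line and 25 their lowest line in common between mock and transfected cells. Both channels read the same lines and spots, so such overlap is no separate check of the mock ranges. For these counts the shares of all genes were not counted. The smallest adjusted p among members was 0.000576, for LINC00704, whose Cy5 level ran from 1.56 in MDA-MB-231 to -4.20 in PANC1. It was 0.000695 for LINC01296, 0.000865 for LINC01540, 0.000989 for LINC01315, 0.0019 for LINC01444 and 0.0021 for LINC00261. Each line had its own transfections, so that line and transfection cannot be told apart in this test, and 30 members were called without the miR-144-3p array (3745 of 15572 genes) and 32 without the miR-144-5p array (3794 genes).

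Among the lists, 10 of 18 LINC genes studied in cancer were members. LINC00152 (CYTOR), a cytoplasmic RNA linked to proliferation, had a mock level of 3.24 in MDA-MB-231, 2.07 in SK-MES-1, 1.82 in SW1990, 1.16 in PC3 and 0.99 in PANC1, and the adjusted p of the F-test on its Cy5 levels was 0.0053. LINC00657 (NORAD), a cytoplasmic RNA that binds Pumilio proteins and guards genome stability, varied less, from -0.15 in SK-MES-1 to -1.32 in PANC1 (adjusted p = 0.015). LINC00662 was highest in PANC1 at 0.60 and lowest in MDA-MB-231 at -2.07. All 5 of its probes were highest in PANC1. LINC00467 was at 0.21 in SK-MES-1 and -0.23 in PC3, and at -2.45 in SW1990. LINC00665 was highest in PANC1 at -1.83 and lowest in MDA-MB-231 at -4.36. Its 3 other probes were all lowest in PC3, at -6.41, -3.92 and -4.88, and 1 of them was highest in SW1990, at -2.38. In all, 8 of the 10 had a mock range over 1 and 6 were called by the F-test, beside 65.4% and 50.9% of all genes.

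Of 9 LINC names that now belong to genes for very small proteins or have been described as such, 6 were members. LINC01420, now NBDY, encodes a short protein that binds the mRNA decapping complex. Its mock level was 2.63 in SK-MES-1, 2.09 in PC3, 2.04 in PANC1, 1.58 in MDA-MB-231 and 0.15 in SW1990, and the low level in SW1990 was seen with its second probe as well, at -1.64 against 0.48 to 1.52 elsewhere. LINC00086 was highest in SK-MES-1 at -3.00 and lowest in MDA-MB-231 at -5.43, but its second probe was highest in PC3 at -4.23 and lowest in SW1990 at -5.19. LINC00493, now SMIM26 and a small mitochondrial protein gene, was nearly level, from 2.31 in SW1990 to 2.81 in MDA-MB-231. In this list 5 of 6 had a mock range over 1 and 3 were called by the F-test, beside 65.4% and 50.9% of all genes. For other well-known lncRNAs such as MALAT1, NEAT1, GAS5 and the SNHG host genes, 25 of 30 passed the same Cy3 rule. Of these 25, 12 were called by the F-test, beside the same 50.9%.

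Promoters and probes of members were described by features that the rule did not use, with no test. A promoter, taken as 250 bases before to 50 after the start in the RefSeq table (GRCh38.p14), was found for 123 members and for 478 LINC genes outside the rule. It was rich in CpG (an observed-to-expected ratio over 0.6 and GC over 50%) in 39.0% of the former and 18.2% of the latter, beside 24.0% of all lncRNA promoters and 46.8% of all promoters. A start site facing that of a protein-coding gene within 1000 bases was found for 11 members (8.94%), for 3.97% of the other LINC genes and for 13.2% of all lncRNA promoters. Among these 11 were LINC01389, head to head with FOXD2, and LINC01481, head to head with CNOT2. The mock range was over 2 for 10 of the 48 members with a CpG-rich promoter and for 11 of the 75 without. The probes of members had a median GC content of 45.0%, against 41.7% for LINC probes that failed the rule. It was 43.3% both for all probes well above background in Cy3 on all 8 arrays and for all probes.

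After transfection most members moved little, as did most genes. On the log2 ratio of transfected over mock, 147 of 166 members never passed 1 in either direction on any array, and 65 never passed 0.5. The same shares of all genes were not counted. On single arrays, 66.3% to 93.4% of members and 63.4% to 91.2% of all genes lay within 0.5 of 0. The median ratio of the members lay between -0.04 and 0.09 on 7 arrays and was 0.19 on the miR-130-5p array, where that of all genes was 0.05. In all there were 27 values past 1, in 19 members, of which 13 had 1 such value, 5 had 2 and LINC01389 alone had more. Numbers past 1 in either direction were 4 members on the si-PIR-2 array beside 3.77% of all genes, 2 on the si-PIR-3 array beside 2.27%, 2 on the miR-144-5p array beside 1.55% and 2 on the miR-144-3p array beside 0.783%. They were 2 in SW1990 with miR-204-5p beside 1.84%, 1 in MDA-MB-231 with miR-204-5p beside 1.91%, 11 on the miR-130-5p array beside 9.14% and 3 on the miR-130-3p array beside 2.86%. As shares of the 166 members these were 0.602% to 6.63%, and lay below the share of all genes on every array but that of miR-144-3p (1.20%).

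**Figure D2:**
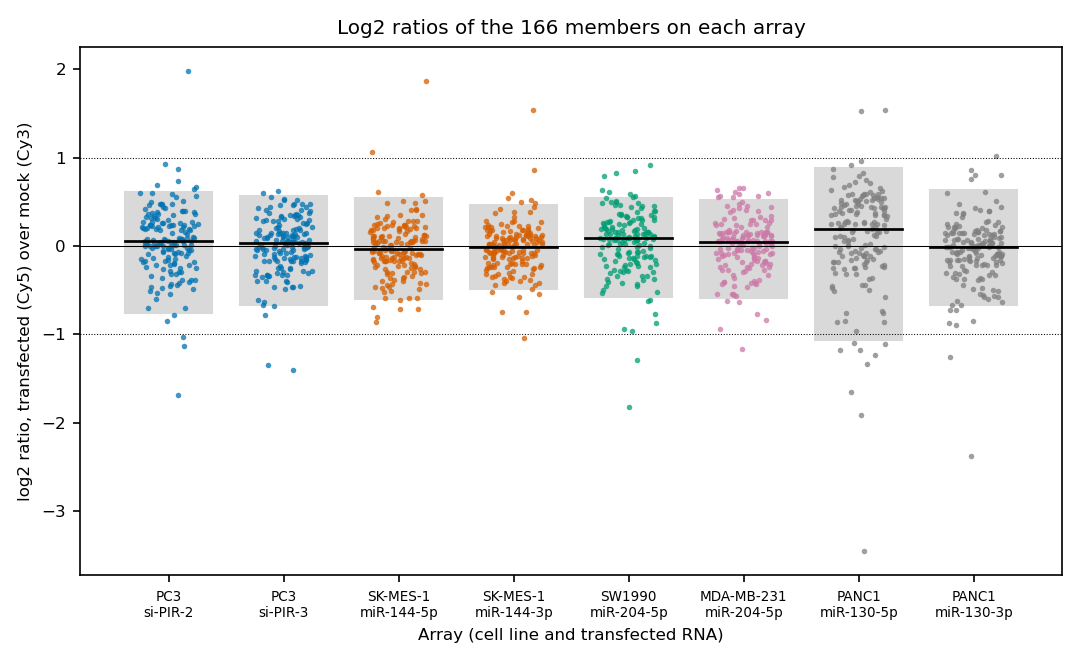
Log2 ratio of transfected (Cy5) over mock (Cy3) cells for the 166 LINC genes on each of the 8 arrays (points, spread sideways for visibility). Black lines are the medians of the members, grey boxes span the 5th to the 95th percentile of all 15572 genes tested, and dotted lines mark 1 and -1. The widest spread, for members and for all genes, was on the miR-130-5p array.

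Values past 1 depended on the background correction. After normexp with an offset of 50 and loess, 1 of the 27 values stayed past 1, LINC00467 on the miR-130-5p array at -1.32, and with loess and no background correction 12 did. No value turned its sign under either. Ratios are therefore given below with the direction and the replicate probe or array where there is one.

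**Figure D3:**
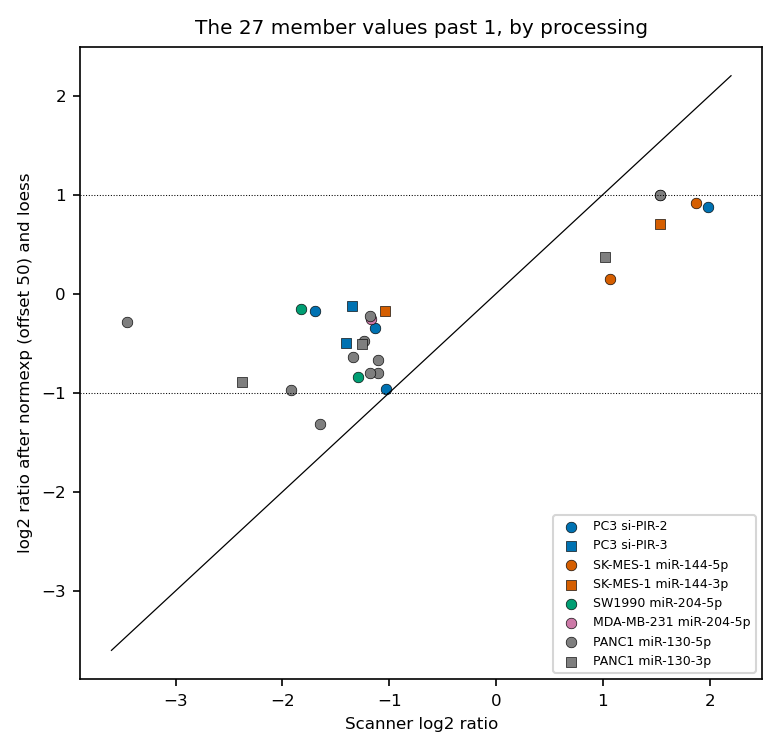
Log2 ratio after normexp background correction (offset 50) and loess (vertical axis) against the scanner log2 ratio (horizontal axis) for the 27 member values past 1, coloured by cell line. All points keep their sign, lie nearer to 0 than the solid line of equal values, and 1 lies outside the dotted lines at 1 and -1.

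Over the 5 cell lines, with the arrays of a line averaged first, 3 members differed from 0 by limma at an adjusted p of 0.05. LINC00886 was lower, as the only one of 166 (0.602%), beside 0.372% of all genes. LINC01122 and LINC01296 were higher, 2 of 166 (1.20%), beside 0.655% of all genes. At an unadjusted p under 0.05, 14 members were lower (8.43%, beside 9.72% of all genes) and 14 were higher (8.43%, beside 11.3%). All 3 were on the same side on all 8 arrays. The dye and the transfection cannot be told apart in these ratios.

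LINC00886, a transcript with no role known here, gave ratios of -0.71 with si-PIR-2, -0.67 with si-PIR-3, -0.71 with miR-144-5p, -0.10 with miR-144-3p, -0.39 and -0.94 with miR-204-5p in SW1990 and MDA-MB-231, -1.18 with miR-130-5p and -0.89 with miR-130-3p. The mean of the 5 lines was -0.69 ± 0.12 (SE, adjusted p = 0.047 by limma). It was a dim gene, with mock levels from -6.51 in PC3 to -4.68 in SK-MES-1, and its mean was -0.28 with no background correction and -0.11 after normexp, where the call was lost. LINC01122 gave 0.27 with si-PIR-2, 0.41 with si-PIR-3, 0.51 and 0.60 with miR-144-5p and miR-144-3p, 0.49 and 0.57 with miR-204-5p in SW1990 and MDA-MB-231, and 0.79 and 0.60 with miR-130-5p and miR-130-3p. The mean was 0.53 ± 0.08 (SE, adjusted p = 0.044 by limma). Its second probe, some way off in the same gene, gave -0.09 to 0.27, with 5 of 8 values above 0, so that the rise was not seen with both probes.

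The probes of these genes are shown because 2 of the 3 hold an unusual run of bases. They are 60 bases long and printed 5′ to 3′ as given in the array files, with the longest run of G and the TG repeat in capitals. LINC00886 lies at chr3:156467790-156467849, the LINC01122 probes at chr2:59290657-59290716 and chr2:59252005-59252064, and LINC01296 at chr14:19925241-19925300 (hg19).
LINC00886: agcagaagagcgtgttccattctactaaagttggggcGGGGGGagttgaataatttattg
LINC01122 first probe: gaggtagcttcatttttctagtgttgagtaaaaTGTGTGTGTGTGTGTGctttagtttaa
LINC01122 second probe: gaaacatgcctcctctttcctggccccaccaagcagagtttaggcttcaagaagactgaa
LINC01296: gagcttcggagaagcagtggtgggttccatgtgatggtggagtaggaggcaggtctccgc
A run of 6 or more G was found in 1 of 226 member probes, that of LINC00886, and in 0.40% of all 58201 probes. A TG repeat of 6 or more units was found in 1 member probe, the first of LINC01122, and in 0.053% of all probes. The part of these bases in the ratios was not tested.

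LINC01296 gave 0.55 with si-PIR-2, 0.18 with si-PIR-3, 0.61 and 0.28 with miR-144-5p and miR-144-3p, 0.79 and 0.66 with miR-204-5p in SW1990 and MDA-MB-231, and 0.72 and 0.15 with miR-130-5p and miR-130-3p. The mean of the 5 lines was 0.54 ± 0.09 (SE, adjusted p = 0.047 by limma). It was also called by limma after normexp and loess (adjusted p = 0.028), with loess and no background correction (0.033) and, narrowly, after median centring (0.0497). The remaining ways of making the ratio gave the same mean of 0.54 and were no separate check. The values were highest in SW1990 and lowest with miR-130-3p. With 1 fewer line or array the calls were often lost: no member was called when any 1 of the 5 lines was left out, when the si-PIR-3 array was left out, or when the miR-130-3p array was left out, and LINC01122 alone was called without the si-PIR-2 or the miR-144-5p array.

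Next in size among members whose 5 line means had one sign were genes that did not pass the test. LINC00665 gave 0.11 to 0.62 over the 8 arrays (mean 0.40 ± 0.08, SE, adjusted p = 0.065 by limma), and its 3 other probes gave -0.23 to 0.70. LINC00639 gave 0.17 to 0.49 (mean 0.32, adjusted p = 0.099). LINC00467 gave -1.65 to 0.04 (mean -0.50, adjusted p = 0.11), LINC00847 -1.18 to 0.35 (mean -0.40, adjusted p = 0.16) and LINC00313 -0.87 to 0.01 (mean -0.39, adjusted p = 0.15). The 5 line means had one sign in 18.7% of members, 21 higher and 10 lower, and in 20.5% of all genes.

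**Figure D4:**
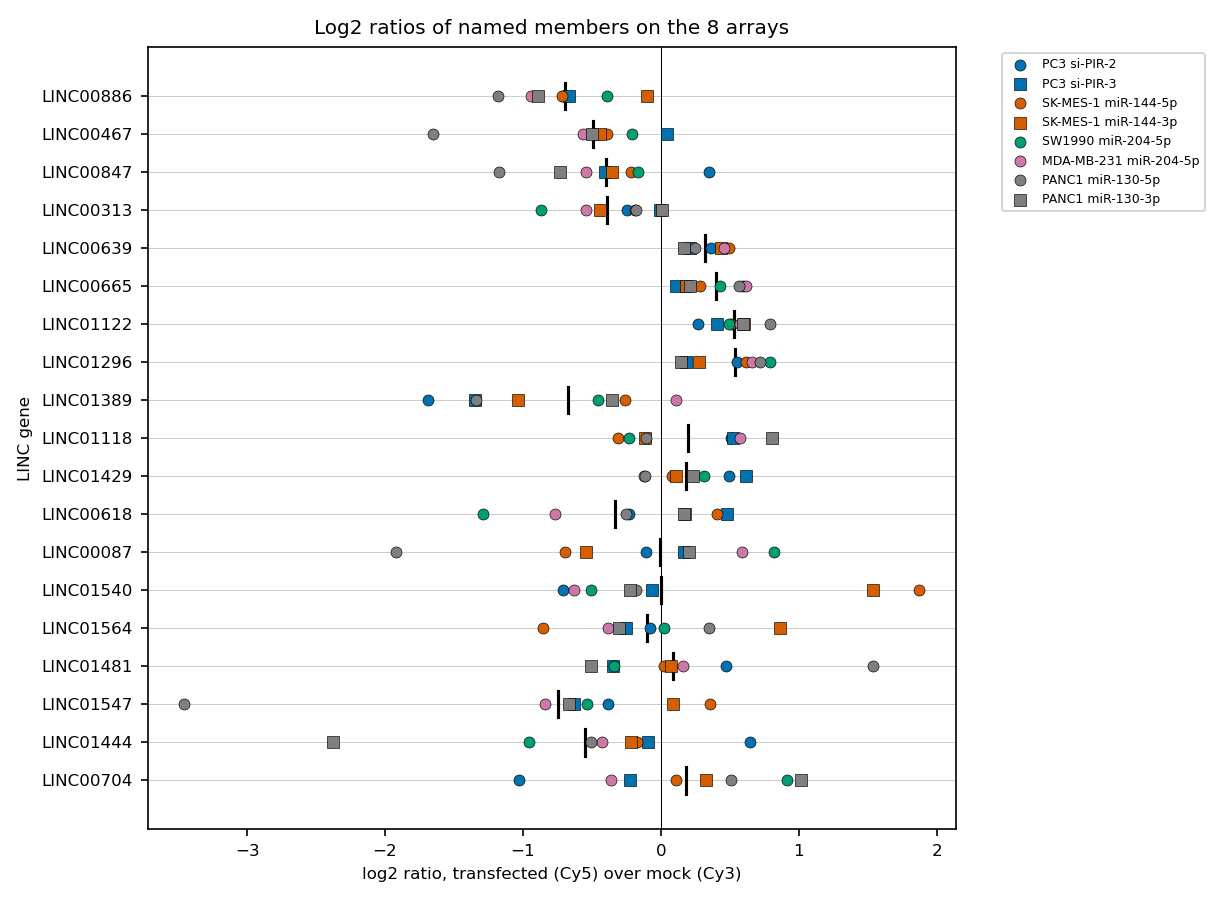
Log2 ratio of transfected (Cy5) over mock (Cy3) cells on the 8 arrays for 19 named LINC genes, with 1 symbol per array and a black bar at the mean of the 5 cell lines. The first 8 genes have 5 line means of one sign, while both SK-MES-1 values of LINC01540 and single PANC1 values of LINC01481, LINC01547 and LINC01444 stand apart from those of the other arrays.

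With si-PIR in PC3, no member passed the test, beside 0.00642% of all genes lower and 0% higher. Without adjustment, 10 members were lower (6.02%, beside 8.87% of all genes) and 10 higher (6.02%, beside 9.35%). Judged by the weaker of both arrays, LINC01389, the neighbour of FOXD2, was lowest, at -1.69 with si-PIR-2 and -1.35 with si-PIR-3 (mean -1.52 ± 0.18, SE, adjusted p = 0.12 by limma). The scanner software did not call its Cy5 signal well above background on either array, so that the size of the fall is uncertain. The 2 ratios were -0.18 and -0.13 after normexp and loess, and -0.42 and -0.32 with loess and no background correction. Folds given below as bounds set the mock signal against the higher of 2 values. These are the gene's own Cy5 signal and the lowest one called well above background on the array. For LINC01389 its own signal was the higher on both arrays, so that no bound is given. Such bounds hold for the scanner's background correction only. LINC01389 was also at -1.04 with miR-144-3p and -1.34 with miR-130-5p, and its mock level was -3.19 in PANC1 and -6.28 to -5.47 in the 4 other lines. LINC00886 was next, at -0.71 and -0.67.

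Judged the same way, the highest members were LINC01118, at 0.51 and 0.52, and LINC01429, at 0.50 and 0.62, neither of which passed the test (adjusted p = 0.28 and 0.20 by limma). Among the larger values, the 2 siRNAs often differed. LINC01186 was at 1.98 with si-PIR-2 and -0.49 with si-PIR-3, LINC01578, now CHASERR and the neighbour of the chromatin remodeller gene CHD2, at -1.14 and 0.25, and LINC01278 at 0.37 and -1.40, with 0.38 and -0.20 on its second probe. LINC00704 was at -1.03 and -0.23. LINC01186, LINC01578 and LINC01278 were chosen after their values were seen. With the si-PIR-2 array left to stand for si-PIR alone, 3 of 166 members were called, LINC01186, LINC01389 and LINC01578, beside 450 of 15572 genes. That fit assumes that the lone array varies like the miR-204-5p arrays.

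Both probes of LINC01186 were higher with si-PIR-2, at 1.98 and 1.82, and both were lower with miR-130-3p, at -1.26 and -1.63. These probes are shown because they are not separate measurements. The array annotation places their ends further apart than their own length on chromosome X, at chrX:46185857-46187012 and chrX:46185851-46186759 (hg19), and share the 37 bases in capitals.
LINC01186 first probe: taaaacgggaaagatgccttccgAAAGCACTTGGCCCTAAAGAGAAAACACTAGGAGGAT
LINC01186 second probe: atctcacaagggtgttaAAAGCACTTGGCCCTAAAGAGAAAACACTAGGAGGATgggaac
The bases before the shared run differ between the 2 probes.

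With miR-204-5p, given to 2 lines, no member passed the test, beside 0.0771% of all genes lower and 0% higher. Without adjustment, 13 members were lower (7.83%, beside 8.78% of all genes) and 11 higher (6.63%, beside 8.44%). The lowest in the weaker of the 2 lines were LINC00618, at -1.29 and -0.77 in SW1990 and MDA-MB-231 (adjusted p = 0.14 by limma), and LINC00313, at -0.87 and -0.54 (adjusted p = 0.13). The highest were LINC01296, at 0.79 and 0.66 (adjusted p = 0.13), and LINC00087, at 0.82 and 0.59 (adjusted p = 0.13). With the 2 miR-204-5p arrays fitted alone, LINC01296 was the 1 member called of 166, beside 405 of 15572 genes. LINC00261 was at -1.82 in SW1990, where Cy5 was not called well above background (at least 2.57-fold lower by the scanner's signals), and at -0.18 in MDA-MB-231. The SW1990 value was -0.16 after normexp and loess, and -0.44 with loess and no background correction. LINC01315 was at -0.42 and -1.17.

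Between si-PIR and miR-204-5p, no member differed by the test of that contrast, beside 0% of all genes in each direction, and without adjustment 7 members were lower (4.22%, beside 6.56% of all genes) and 7 higher (4.22%, beside 7.06%). LINC00657 (NORAD) was at 0.18 and 0.46 with si-PIR and at -0.41 and -0.63 with miR-204-5p, a difference of 0.84 ± 0.19 (SE, adjusted p = 0.24 by limma). LINC01389 differed by -1.34 ± 0.26 (SE, adjusted p = 0.20), where its Cy5 with si-PIR was not called well above background and the size is therefore uncertain, and LINC00618 by 1.15 ± 0.32 (SE, adjusted p = 0.28). Cell line and agent cannot be told apart in this contrast.

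With miR-144 in SK-MES-1, the highest member on both arrays was LINC01540 (GAPLINC), at 1.87 with miR-144-5p and 1.54 with miR-144-3p. On the 6 other arrays it was at -0.71 to -0.06, so that the 2 SK-MES-1 arrays stood apart from all others. Its Cy5 level in SK-MES-1 was -2.93, against a mock level of -4.64 with a difference of 0.06 between the mock values of both arrays. There is 1 array for each strand and no test, and the 2 arrays may share their mock RNA. The lowest were LINC01564 with miR-144-5p, at -0.86, and LINC01389 with miR-144-3p, at -1.04. LINC01564 was at 0.86 with miR-144-3p, opposite to the other strand. LINC01315 was at 1.07 and -0.13, but the mock levels of these 2 arrays also differed for this gene, as given above. Its mean mock level in SK-MES-1 was -6.12, the lowest of the 5 lines, and the 1.07 became 0.15 after normexp and loess.

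The strands of miR-144 are shown because LINC01540 was higher with both although they share no seed. The seed, bases 2 to 8 from the 5′ end, is in capitals, and sequences are from RefSeq (GRCh38.p14). The labels do not say which miR-130 was used, and none is shown for it.
miR-144-5p: gGAUAUCAucauauacuguaag
miR-144-3p: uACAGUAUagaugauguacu
miR-204-5p: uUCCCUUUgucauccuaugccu
LINC01540 probe: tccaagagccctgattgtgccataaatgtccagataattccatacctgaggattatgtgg
The LINC01540 probe lies at chr18:3478866-3478925 (hg19). The match of the seed of miR-144-5p (TGATATC) and that of miR-144-3p (ATACTGT) stood in 0 of 226 member probes on the probe's strand, and in 0.256% and 0.421% of all probes. The match of miR-204-5p (AAAGGGA) stood in 2 member probes, of LINC00421 and LINC00597, and in 0.713% of all probes. These windows of 60 bases are only a small part of each transcript.

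With miR-130-5p in PANC1, 9 members were below -1 and 2 above 1, the most of any array. LINC01547 was lowest at -3.46. Cy5 was not called well above background there, which makes it at least 4.39-fold lower by the scanner's signals, and its second probe gave -0.80. The first probe gave -0.29 after normexp and loess, and -0.66 with loess and no background correction. LINC00087 was at -1.92, LINC00467 at -1.65, LINC01389 at -1.34, LINC00883 at -1.23, LINC00886 and LINC00847 both at -1.18, LINC00261 at -1.11 and LINC00342 at -1.10. The second probe of LINC00467 gave -1.26 and that of LINC00847 -0.78. LINC01481, now PRANCR and known for a role in the renewal of epidermal progenitors, was highest at 1.54, with 1.36 on its second probe, and LINC00115 was at 1.53, on a probe whose annotated chromosome differs from that of the gene in RefSeq.

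The probes of LINC01547 are shown since they disagree in size. They lie at chr21:46353355-46353414 and chr21:46354881-46354940 (hg19).
LINC01547 first probe: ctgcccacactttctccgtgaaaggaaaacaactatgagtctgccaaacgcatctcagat
LINC01547 second probe: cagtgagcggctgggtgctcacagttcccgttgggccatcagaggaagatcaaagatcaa
Over the 8 arrays the first probe gave -3.46 to 0.35 and the second -0.80 to 0.23, and both were lowest with miR-130-5p. In mock PANC1 cells the level was -5.17 on the first and -5.23 on the second.

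LINC00087 also differed between its probes. The first gave -1.92 and the second -1.72 with miR-130-5p, both were above 0 with miR-204-5p (0.82 and 0.59, and 0.73 and 0.69), and both were below 0 with miR-144. The third stayed between -0.05 and 0.36 on all 8 arrays. It is shown beside the first probe of LINC00086, its copy on the X chromosome, since the 60 bases differ at the 2 positions in capitals only, and each may bind RNA of both genes. They lie at chrX:134556222-134556281 (LINC00086) and chrX:134232439-134232498 (LINC00087), hg19.
LINC00086 first probe: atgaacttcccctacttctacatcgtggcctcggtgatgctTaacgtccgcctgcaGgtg
LINC00087, the third probe: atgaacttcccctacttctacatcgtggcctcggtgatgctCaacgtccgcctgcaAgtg
The first probe of LINC00086 was at -0.24 with miR-130-5p and -0.31 to 0.17 over all arrays. The 2 near-identical probes thus lay near 0 on the array where the first 2 probes of LINC00087 were lowest.

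**Figure D5:**
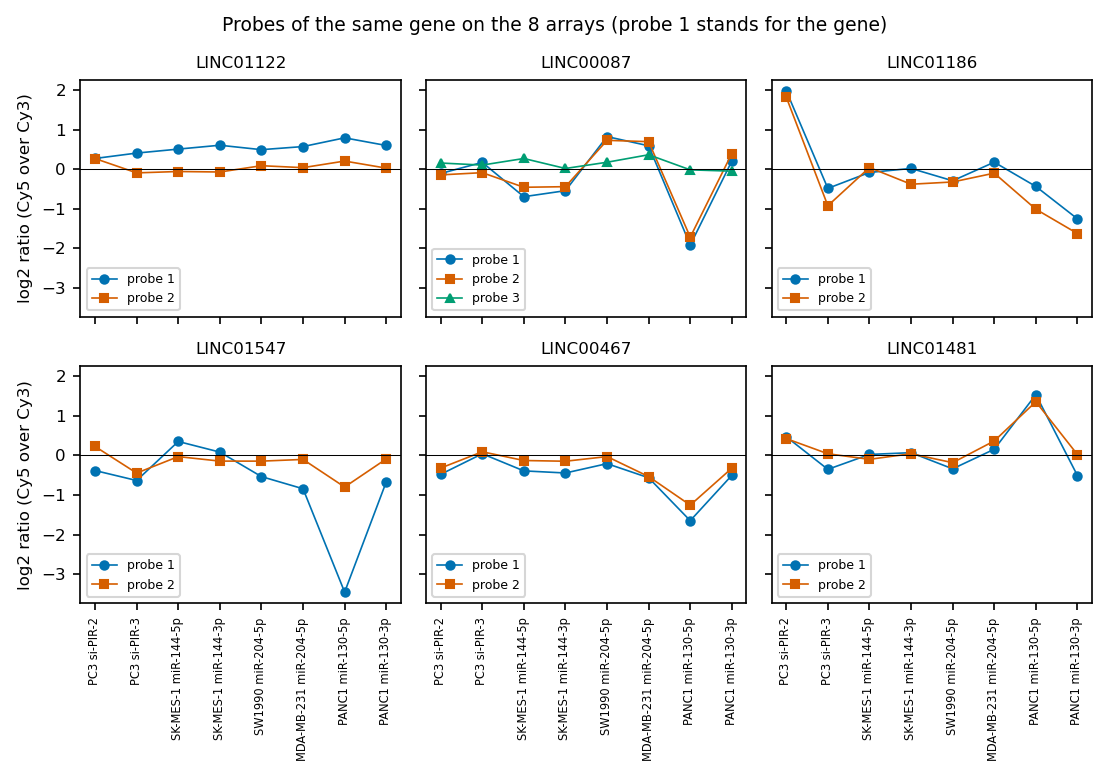
Log2 ratio (vertical axis) on the 8 arrays (horizontal axis) for every passing probe of 6 LINC genes, with 1 line per probe and probe 1 standing for the gene. The probes of LINC00467 and LINC01481 follow each other, and the 2 of LINC01186 do so while sharing 37 bases. Those of LINC01122, LINC01547 and the third of LINC00087 differ in size. For LINC01122 and LINC00087 they also differ in sign on some arrays.

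With miR-130-3p in PANC1, the lowest member was LINC01444 at -2.38, against -0.96 to 0.65 on the other arrays and -0.50 with miR-130-5p in the same line. Its mock level in PANC1 was -3.11, with a difference of 0.05 between both arrays. LINC01186 followed at -1.26. The highest was LINC00704, at 1.02 on its first and 0.76 on its second probe, in the line where its mock level was lowest. LINC00116, now MTLN, which encodes the mitochondrial protein mitoregulin, was at -0.85 with miR-130-3p and at 0.02 to 0.47 on all 7 other arrays. The LINC01444 probe is shown as the only measurement of the gene and lies at chr18:14969675-14969734 (hg19).
LINC01444: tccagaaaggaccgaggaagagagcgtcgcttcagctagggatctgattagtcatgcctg

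None of the 6 small-protein members, the 10 members studied in cancer or the 25 other lncRNAs was called over the 5 lines, with si-PIR, with miR-204-5p or between both. Their median change over the 5 lines was -0.02, 0.02 and 0.04, beside 0.01 for all genes. Values past 1 on any array were found for 1, 2 and 6 of them. The share of all genes past 1 on any array was not counted, and on single arrays it was 0.783% to 9.14%.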

How the data were processed

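The authors deposited scanner output of 8 arrays made with Agilent Feature Extraction, which holds the background-corrected intensity of both dyes and, after dye normalization, the log10 ratio of Cy5 over Cy3. A value table that the authors deposited gives identical log10 ratios (largest difference 0). Control spots and outlier spots (126 to 173 an array) were dropped, and the remaining spots were averaged by probe. A probe was well above background where the flag was set on at least 0.5 of its spots. Ratios were turned to log2, and levels are the log2 processed intensity minus the 75th percentile of the array. Positions are those of the array annotation (hg19), and gene names were matched to RefSeq.

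Fits used limma 3.58.1 in R 4.3.3 over 15572 genes with Benjamini-Hochberg adjustment at 0.05. They were the mean of 5 line means against 0, contrasts in a fit of 6 transfections to 8 arrays (2 residual degrees of freedom) and a moderated F-test between lines on Cy5 levels (3 residual degrees of freedom). Nothing says that arrays are separate cultures, so p-values measure the spread between these samples, which may be technical. The fits were tested on simulated data. Members, lists and tests were chosen with earlier results of these data known. Genes were named as the 4 lowest and 4 highest with line means of one sign, those most above and most below the other lines in mock cells of each line, the 2 lowest and 2 highest in the weaker array of si-PIR and of miR-204-5p, the extremes of each other array, genes called, and list members by mock range. LINC00116, LINC00493 and the genes given beside these extremes on single arrays were added with their values in view. Alternatives were normexp (offset 50) with loess, loess alone, median centring, detection in both channels, averaging probes, the value table, other blocks and thresholds, and leaving out lines or arrays. Drawings used matplotlib 3.10.9.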

Additional observations from a re-analysis of the deposited data

Results flagged for a closer look

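For the named LINC genes, 52 sets of 5 line values were checked. In 4, a line's gap to the nearest other line was over 0.71 of the whole range (Dixon's 95% critical value). Many of these genes were named for extreme values in a single line or on a single array. The chance rate of that critical value therefore does not hold here, and the flags are a description. The mock level of LINC01389 was -3.19 in PANC1, above -6.28 to -5.47 in the 4 other lines. After normexp, loess and Aquantile the range of this gene was 0.97 in place of 3.08, with PANC1 still highest. The log2 ratio of LINC00261 was -1.82 in SW1990, below -0.31 to 0.07 elsewhere. Its Cy5 was not called well above background on that array, so that the ratio stands only for at least 2.57-fold lower by the scanner's signals. The SW1990 ratio was -0.16 after normexp and loess. The mean log2 ratio of LINC01420 was -0.29 in PC3, below 0.08 to 0.22 elsewhere, with 0.02 for si-PIR-2 and -0.61 for si-PIR-3. The mean log2 ratio of LINC01540 was 1.70 in SK-MES-1, above -0.63 to -0.20 elsewhere, from arrays that may share their mock RNA.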

How the results depend on the processing

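Over the 5 lines, 3 members were called, and 7 of 166 were called over the 8 arrays with no block, beside 677 of 15572 genes. Leaving out a line or an array gave 0 to 3. With the 2 miR-204-5p arrays alone 1 member was called in place of 0, and leaving out a si-PIR array gave 0 to 3 in place of 0. Between lines, 60 members were called, and 30 to 84 with an array left out. Of the 27 array values past 1, normexp with loess left 1 and loess without background correction 12, and thresholds of 1.5 and 0.5 gave 11 and 192. The mean of LINC00886 was -0.11 after normexp and -0.28 without background correction, neither called. The mean of LINC01122 was 0.29 over its probes, not called, and that of LINC00665 was 0.38 without background correction, called. After normexp, loess and Aquantile, chosen after seeing the data, SK-MES-1 was highest for 39 members in place of 79, and the mock range was over 1 for 30 in place of 84. The causes were not tested. Of 154 values of named members under alternatives, 143 kept their sign. In Cy5, 163 of 166 members were well above background on all arrays. The slide as a block was not run because all 8 arrays lay on 1 slide. Each ratio already pairs transfected and mock cells of the same line on 1 array. The groups compared share fewer than 2 replicate numbers, and those of PC3 come from the siRNA names, so arrays were not paired further.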
